A study of Homo sapiens with 16 samples.

Results

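Transcript levels of 35 genes of glycolysis, lactate handling and the pentose phosphate pathway were examined in 2 established human breast cancer cell lines cultured in low or high glucose. The genes were chosen by name as the enzymes, kinases and transporters of these steps, and all 35 were found among the 18332 genes of the table by matching Ensembl gene IDs to symbols. MDA-MB-231 and MDA-MB-468 cells, both labeled estrogen receptor negative, were kept for 48 hours in glucose at 5 mM (low glucose, the control) or 25 mM (high glucose, a model of hyperglycemia), with 4 replicates in each of the 4 groups and 16 samples in all. Per the study's methods, both lines were conditioned in low glucose and then treated without serum. MDA-MB-231 was routinely grown in DMEM and MDA-MB-468 in RPMI, and the base medium of the treatment is not given for each line in the sources used here, so a difference between the lines and one between their growth media cannot be told apart. Each kind of tumor cell is thus represented by 1 line. The sources used here do not say that replicates came from separate thaws or days, and p-values therefore measure the spread between these samples, which may be partly technical.

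Glycolysis splits glucose into pyruvate in the cytosol. Hexokinase traps glucose in the cell, phosphofructokinase commits it to breakdown, and the lower steps from GAPDH to pyruvate kinase recover energy as ATP. Pyruvate is reduced to lactate by lactate dehydrogenase and leaves through monocarboxylate transporters, or enters mitochondria, where the pyruvate dehydrogenase complex, held in check by the PDK kinases, turns it into acetyl-CoA. The pentose phosphate pathway branches off at glucose 6-phosphate and supplies NADPH and ribose. Tumor cells are known for running glycolysis to lactate even when oxygen is present, and many of these genes are targets of the hypoxia-inducible factors and of MYC.

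Over the 18332 genes of the table, the reads of a library summed to between 14094597 and 24425916. The counting floor of 3 reads thus lay at 0.123 to 0.213 CPM (these reads scaled to 1000000 per library). Values are given as normalized reads, the deposited read count divided by a size factor for its library, and fold changes are on the log2(normalized reads + 1) scale. They are relative to all RNA of a library, so fewer expressing cells and less RNA per cell cannot be told apart. Within a group, pairs of replicates gave a chi-square of 2.02 to 5.20 per gene, where counting error alone gives about 1. In the low-glucose MDA-MB-231 group the pairs with replicate 4 gave 3.83 to 5.20 and the other pairs 2.13 to 2.66. The lines carried most of their own listed markers. VIM, an intermediate filament of mesenchymal cells, averaged 96228 normalized reads in low-glucose MDA-MB-231 and 21.5 in low-glucose MDA-MB-468. KRT5, a basal keratin, averaged 1.13 and 15150.1. SPARC, also listed for MDA-MB-231, did not mark it, at 5.55 and 7.84 (log2 difference 0.47, adjusted p by limma = 0.297). The other listed markers, ZEB1 and CAV1 for MDA-MB-231 and CDH1, EPCAM, KRT6B and EGFR for MDA-MB-468, were called higher in their own line. ESR1, which encodes the estrogen receptor, averaged 1.31 in low-glucose MDA-MB-231 and 57.9 in low-glucose MDA-MB-468, low in both. PTPRC, CDH5 and DCN, markers of leukocytes, endothelium and fibroblasts, averaged at most 12.5 in any group, while CD68 reached 2279 in low-glucose MDA-MB-231 and COL1A1 338. ARRDC4, known as a glucose-induced gene, rose with glucose in MDA-MB-231 (log2 change 1.06 ± 0.30 SE, adjusted p by limma = 0.0245) and fell in MDA-MB-468 (-1.24 ± 0.19 SE, adjusted p by limma = 5.65e-05). An exchange of the low and high labels in MDA-MB-468 would turn every glucose direction given for that line. It would also change the differences of response between the lines and the comparison of the lines in low glucose. Such an exchange was not tested.

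In MDA-MB-231, 9 of the 35 genes tested were lower and 3 were higher in high glucose. The 9 that fell were PFKL, PFKP, PFKFB3, ALDOC, TPI1, PGK1, PGAM1, ENO2 and LDHA, and the 3 that rose were PFKFB2, PDK2 and PGLS. Among all 14884 genes tested in this line, limma called 9.37% lower and 5.71% higher at an adjusted p under 0.05. In MDA-MB-468, where PDK4 was below the filter on low values, 14 of 34 members rose and 6 fell, against 24.9% and 22.7% of the 15757 genes tested. HK1, PFKL, PFKFB3, TPI1, GAPDH, PGAM1, ENO1, PKM, PDK2, PDHB, DLAT, SLC16A3, TKT and RPE rose, and HK2, PFKP, ENO2, LDHA, PDK1 and SLC16A1 fell. The median log2 change of the members was -0.07 for MDA-MB-231 and 0.09 for MDA-MB-468, where the median of all genes tested was 0.00 in each. Among better-expressed genes, those reaching 5 CPM in 4 samples of a line, 14 of 33 members were called in MDA-MB-231 beside 21.8% of all such genes, and 21 of 33 in MDA-MB-468 beside 59.0%.

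PFKP, ENO2 and LDHA were called lower in both lines and PDK2 higher in both. PFKL, PFKFB3, TPI1 and PGAM1 fell in MDA-MB-231 and rose in MDA-MB-468. GPI, PFKM, PFKFB4, ALDOA, LDHB, PDK3, PDHA1, PGD, TALDO1 and RPIA were called in neither line by limma. How many of all genes shared a direction, differed in it or were called in neither line was not counted. These patterns are therefore not given as particular to the members. DESeq2 on the recovered reads called LDHB (-0.08, adjusted p = 0.0441) and PGD (-0.08, 0.044) lower in MDA-MB-231 and ALDOA (0.08, 0.0413) higher in MDA-MB-468. A correction for transcript length added ENO1 (-0.10, adjusted p by limma = 0.0202), GAPDH (-0.11, 0.00602), LDHB (-0.12, 0.00573), PGD (-0.11, 0.0124) and SLC16A3 (-0.11, 0.0338) to the genes lower in MDA-MB-231, and PFKFB2 (0.16, 0.00228), PGK1 (0.09, 0.0141) and PDHA1 (0.10, 0.045) to those higher in MDA-MB-468. The changes were small: among called members the largest was a log2 change of -0.39 for MDA-MB-231 (ALDOC) and -0.48 for MDA-MB-468 (ENO2).

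**Figure D1:**
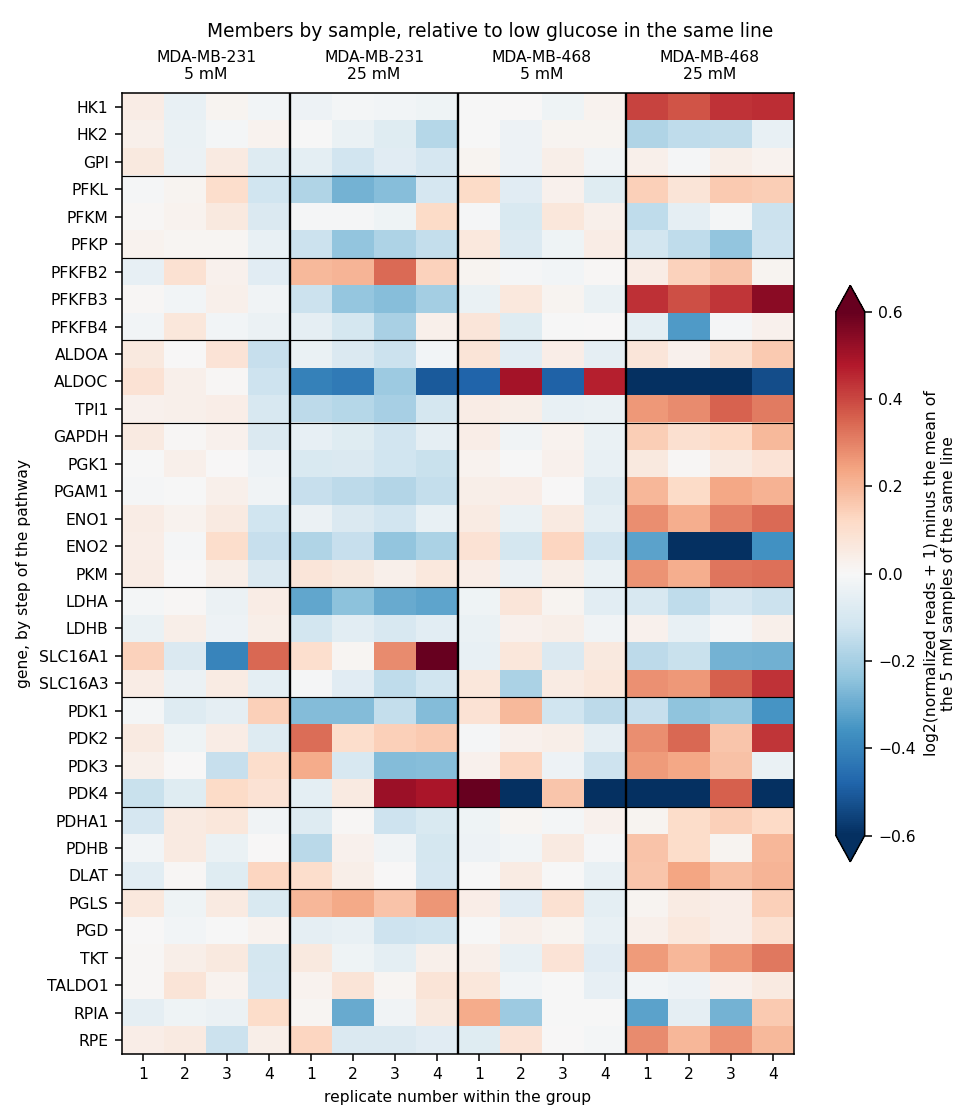
Heat map of the 35 genes in the 16 samples, as log2(normalized reads + 1) minus the mean of the low-glucose samples of the same line (color, clipped at 0.6 in either direction); rows are genes by step and columns are replicates. The HK1, PFKFB3 and TPI1 rows are red in all 4 high-glucose MDA-MB-468 samples, and the LDHA row is blue in all 4 high-glucose samples of both lines. SLC16A1 in MDA-MB-231 and ALDOC and PDK4 in MDA-MB-468 have few reads and scatter.

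**Figure D2:**
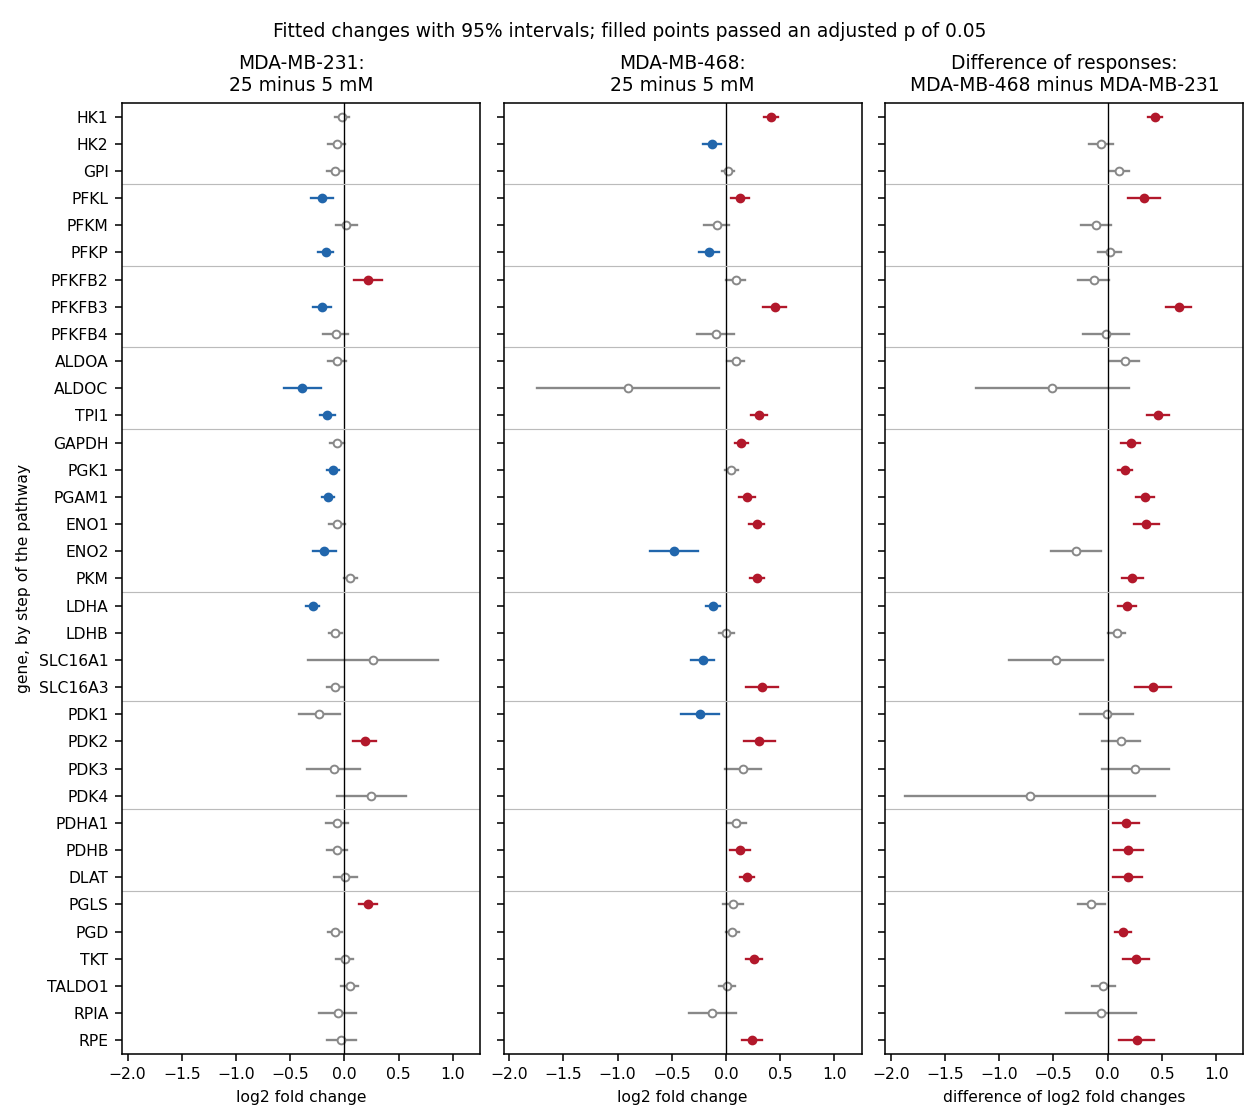
Log2 fold changes of high against low glucose in each line and the difference of the 2 responses, with 95% intervals; filled points passed a limma adjusted p of 0.05, red for higher and blue for lower. PFKFB3 lies at -0.21 for MDA-MB-231 and at 0.45 for MDA-MB-468. PDK4 was not tested in MDA-MB-468.

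Stretches before a listed start site are shown for LDHA, which fell in both lines, and for 3 of the genes called in opposite directions. Each is the 200 bases upstream of the most upstream start in the set of RefSeq windows used here (GRCh38.p14, plus strand). That set listed 2 starts each for LDHA, PFKFB3 and TPI1 and 1 for PGAM1. A start outside the set can lie further upstream, so a stretch may hold transcribed bases or lie inside the annotated gene. The stretches were not compared with the gene starts on hg19, so they need not describe the region before the gene. The stretches lie at chr11:18394363-18394562 for LDHA, chr10:6144721-6144920 for PFKFB3, chr12:6867331-6867530 for TPI1 and chr10:97427618-97427817 for PGAM1. Capitals mark ACGTG and GCGTG on either strand (CACGT and CACGC when read on this one), the core bound by hypoxia-inducible factors, and CACGTG, the E-box of MYC and MondoA-type factors, which contains ACGTG on both strands.
LDHA: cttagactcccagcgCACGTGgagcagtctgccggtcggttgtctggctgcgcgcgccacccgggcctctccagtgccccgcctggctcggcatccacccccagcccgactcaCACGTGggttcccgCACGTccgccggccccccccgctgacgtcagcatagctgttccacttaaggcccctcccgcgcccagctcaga
PFKFB3: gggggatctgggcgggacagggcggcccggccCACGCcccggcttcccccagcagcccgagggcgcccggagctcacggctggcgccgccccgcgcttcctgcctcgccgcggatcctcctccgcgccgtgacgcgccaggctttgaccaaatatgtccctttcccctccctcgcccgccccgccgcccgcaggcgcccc
TPI1: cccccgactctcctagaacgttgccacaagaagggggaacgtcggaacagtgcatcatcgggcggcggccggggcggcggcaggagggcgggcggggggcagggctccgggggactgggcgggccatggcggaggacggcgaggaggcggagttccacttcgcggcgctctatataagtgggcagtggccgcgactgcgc
PGAM1: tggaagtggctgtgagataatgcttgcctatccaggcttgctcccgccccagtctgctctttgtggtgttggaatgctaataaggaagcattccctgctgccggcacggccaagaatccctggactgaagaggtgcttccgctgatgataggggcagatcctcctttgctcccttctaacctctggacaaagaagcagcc
The LDHA stretch held 5 matches counted over both strands, where each CACGTG counts once per strand. PFKFB3 held 1, and TPI1 and PGAM1 held 0. Windows of 250 bases upstream of a start were available for 33 members (61 starts). ACGTG was found in 36.1% of the members' windows and 18.5% of all 35116 windows, GCGTG in 34.4% and 32.2%, and CACGTG in 13.1% and 6.34%. Windows of the same gene can share sequence. By gene, 19, 19 and 8 of the 33 members held these motifs, a count not made for all genes. A match is a description of letters and not a bound site.

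The hexokinases differed from one another. HK1, the constitutive hexokinase (chr10:71029740-71161640 in hg19), was at 3179, 3184, 3129.9 and 3234 normalized reads in low-glucose MDA-MB-468 and 4207, 4131, 4303 and 4327 in high glucose, a log2 change of 0.41 ± 0.03 (SE, adjusted p by limma = 7.79e-09). All 4 high-glucose samples lay above all 4 low-glucose samples. In MDA-MB-231 it stood at 4128, 3893, 4055 and 3961 in low and 3921, 3982, 3959 and 3934 in high glucose, overlapping groups with a log2 change of -0.02 (95% interval -0.08 to 0.04). HK2, the inducible hexokinase of many tumors, fell in MDA-MB-468 from 1387 ± 21.3 to 1267 ± 54.4 (SD, n = 4), a log2 change of -0.13 ± 0.04 (SE, adjusted p by limma = 0.0102), a call lost with a correction for transcript length (adjusted p = 0.0969). Per unit length, HK1 was 3.58 times HK2 in low-glucose and 5.23 times in high-glucose MDA-MB-468, against 2.25 and 2.33 times in MDA-MB-231. GPI, which isomerizes glucose 6-phosphate to fructose 6-phosphate, averaged 4378 and 4122 in MDA-MB-231 and 7786 and 7896 in MDA-MB-468 and was called in neither.

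The phosphofructokinase genes, which encode the committed step, did not move as 1 group. PFKL, the liver-type subunit, was at 2442, 2481, 2635 and 2259 in low-glucose and 2163, 2014, 2054 and 2286 in high-glucose MDA-MB-231. Its log2 change was -0.20 ± 0.05 (SE, adjusted p by limma = 0.00689), although the highest high-glucose sample lay just above the lowest low-glucose one, replicate 4. In MDA-MB-468 the values were 3215, 2832, 3019 and 2819 in low and 3273, 3126, 3309 and 3282 in high glucose, again overlapping, with a log2 change of 0.13 ± 0.04 (SE, adjusted p by limma = 0.0137). That call was lost without low-glucose MDA-MB-468 replicate 4 (0.11, adjusted p = 0.0533). PFKP, the platelet-type subunit, averaged 4199.8 ± 90.5 in low-glucose and 3725 ± 127 in high-glucose MDA-MB-231, and 1409 ± 64.2 and 1265 ± 48.4 in MDA-MB-468 (SD, n = 4). It fell in both, with groups that did not overlap in either line. Its log2 changes were -0.17 ± 0.03 (SE, adjusted p by limma = 0.00129) and -0.16 ± 0.04 (SE, adjusted p by limma = 0.00602). PFKM, the muscle-type subunit, was called in neither line (0.02 and -0.09).

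The PFKFB enzymes make and break fructose 2,6-bisphosphate, the strongest known activator of phosphofructokinase. PFKFB3 (chr10:6186897-6296607), an isoform with high kinase activity, was at 1225, 1204, 1244 and 1201 in low-glucose and 1115, 1037, 1019 and 1058 in high-glucose MDA-MB-231. It was at 456, 489, 474 and 456 in low-glucose and 635, 613, 632 and 683 in high-glucose MDA-MB-468. Groups did not overlap in either line, and the direction differed: the log2 change was -0.21 ± 0.04 (SE, adjusted p by limma = 0.00196) for MDA-MB-231 and 0.45 ± 0.05 (SE, adjusted p by limma = 1.9e-06) for MDA-MB-468. PFKFB2, the heart-type isoform, was at 392, 433, 412 and 387 in low-glucose and 464, 467, 513 and 446 in high-glucose MDA-MB-231, a rise of 0.22 ± 0.06 (SE, adjusted p by limma = 0.02) with no overlap. The call was lost without low-glucose replicate 1 (0.20, adjusted p = 0.0607) or high-glucose replicate 3 (0.18, adjusted p = 0.078). In MDA-MB-468 the log2 change of PFKFB2 was 0.09 (limma adjusted p = 0.0805). It passed without high-glucose replicate 4 (0.12, adjusted p = 0.039) and, as given above, with the length correction. PFKFB4 had log2 changes of -0.08 and -0.09, neither called.

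At the aldolase and triose phosphate steps, TPI1 moved in opposite directions in the 2 lines. TPI1, triose phosphate isomerase (chr12:6976283-6980112), was at 7843, 7851, 7913 and 7193 in low-glucose and 6901, 6842, 6699 and 7160.1 in high-glucose MDA-MB-231. In MDA-MB-468 it was at 1962, 1949.8, 1846 and 1849 in low and 2275, 2316, 2431 and 2363 in high glucose. No value of one glucose level fell within the range of the other in either line, and the log2 changes were -0.16 ± 0.03 (SE, adjusted p by limma = 0.00402) and 0.30 ± 0.04 (SE, adjusted p by limma = 2.59e-06). ALDOC, a minor aldolase typical of brain, was at 242, 232, 228 and 209 in low-glucose and 171, 169, 195 and 159.8 in high-glucose MDA-MB-231, a log2 change of -0.39 ± 0.08 (SE, adjusted p by limma = 0.00367) with no overlap. It was near the floor in MDA-MB-468, with 7.91, 16.6, 7.88 and 16.2 normalized reads in low and 5.83, 6.55, 3.43 and 7.59 in high glucose. There the log2 change of -0.90 had a 95% interval of -1.74 to -0.06 and did not pass (limma adjusted p = 0.0726). ALDOA, the main aldolase, averaged 15971 and 15227 in low- and high-glucose MDA-MB-231 and 13901 and 14772 in MDA-MB-468. In MDA-MB-468 its limma adjusted p of 0.0505 missed the threshold, and it passed without high-glucose replicate 2 (0.0197), low-glucose replicate 1 (0.018) or low-glucose replicate 3 (0.0468). With all samples it passed under DESeq2 (0.0413), with the 5 CPM filter (0.039) and with the replicate block (0.0456).

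Of the 6 genes of lower glycolysis, 4 rose and 1 fell in MDA-MB-468, and 3 fell in MDA-MB-231, where the shares of all genes were the 24.9%, 22.7% and 9.37% given above. ENO1, the ubiquitous enolase, was at 25659, 24102, 25728 and 23813 in low-glucose and 30055, 28892, 30602 and 31394 in high-glucose MDA-MB-468, a log2 change of 0.28 ± 0.03 (SE, adjusted p by limma = 2.3e-06). PKM, pyruvate kinase, was at 18155, 17245, 18099 and 17164 in low and 21288, 20547, 22043 and 22184 in high glucose (0.28 ± 0.03 SE, adjusted p by limma = 1.12e-06). Neither gene's groups overlapped. In MDA-MB-231, ENO1 values were 58921, 58107, 59281 and 52700.2 in low and 55723, 53898, 52854 and 55374 in high glucose. PKM values there were 57914, 56278, 57577 and 52789 in low and 58973, 58354, 57223 and 58709 in high glucose, and the groups overlapped for both genes. PGAM1, phosphoglycerate mutase, was at 8549, 8577, 8765 and 8468 in low-glucose and 7794, 7707, 7602 and 7771 in high-glucose MDA-MB-231. In MDA-MB-468 it was at 3306, 3317, 3231 and 3064 in low and 3709, 3498, 3793 and 3729 in high glucose. Its groups did not overlap in either line, with log2 changes of -0.15 ± 0.03 (SE, adjusted p by limma = 0.000532) and 0.19 ± 0.03 (SE, adjusted p by limma = 0.000288). PGAM1 has near-identical copies, so how its reads were assigned is uncertain. Of its 13 annotated pseudogenes 2 were in the table, with reads equal to at most 1.35% of those of PGAM1 in any sample. That share says nothing of copies outside the table. The same limit holds for other members with annotated pseudogenes, such as GAPDH (65, with 2 in the table) and LDHA (6, with 1). ENO2, the neuronal enolase, was at 1102, 1069, 1152 and 975 in low-glucose and 947, 973, 911 and 939.7 in high-glucose MDA-MB-231, which did not overlap by a narrow margin. It was at 161, 140.5, 165 and 139 in low-glucose and 121, 99.4, 97.3 and 117 in high-glucose MDA-MB-468, well apart. Its log2 changes were -0.19 ± 0.05 (SE, adjusted p by limma = 0.0166) and -0.48 ± 0.11 (SE, adjusted p by limma = 0.00129).

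The ENO2 call in MDA-MB-231 was lost without low-glucose replicate 1 (adjusted p = 0.0538), low-glucose replicate 3 (0.0562) or high-glucose replicate 3 (0.0549). GAPDH, which oxidizes glyceraldehyde 3-phosphate and is often taken as a reference gene, rose in MDA-MB-468 from 37324 ± 924 to 41112 ± 1200.3, by 0.14 ± 0.03 (SE, adjusted p by limma = 0.000664) on the log2 scale, a call lost under quantile rescaling (0.03, adjusted p = 0.185). In MDA-MB-231 GAPDH had a log2 change of -0.07 (limma adjusted p = 0.128). PGK1, the first ATP-making step, fell in MDA-MB-231 from 12595 ± 229 to 11692 ± 193 (-0.11 ± 0.03 SE, adjusted p by limma = 0.01), a call also lost under quantile rescaling (-0.07, adjusted p = 0.0734). Its value in MDA-MB-468 was 0.05, called with the length correction alone among the full-sample alternatives, with or without the replicate block. Without low-glucose MDA-MB-231 replicate 4, whose values of ENO1, PKM, GAPDH, ALDOA and TPI1 were the lowest of its group, 14 members were called lower in MDA-MB-231 in place of 9. Calls over all genes rose too, to 1475 lower of 14817 tested, from 1395 of 14884 with every sample. The 5 members added were ALDOA (-0.11, adjusted p = 0.00931), ENO1 (-0.11, 0.00201), GAPDH (-0.10, 0.00404), GPI (-0.11, 0.0141) and SLC16A3 (-0.11, 0.0332).

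Lactate dehydrogenase A fell in both lines. LDHA (chr11:18416107-18429972), the subunit that favors making lactate, was at 15487, 15671, 15234 and 16083 in low-glucose and 12586, 13179.6, 12668 and 12525 in high-glucose MDA-MB-231. All 4 high-glucose values lay under all 4 low-glucose ones, with a log2 change of -0.29 ± 0.03 (SE, adjusted p by limma = 1e-06). In MDA-MB-468 it was at 9230.3, 9861, 9496 and 8999 in low and 8780.5, 8444, 8759 and 8588 in high glucose, a log2 change of -0.12 (SE 0.03, limma adjusted p = 0.00388) without overlap. LDHB, the subunit that favors making pyruvate, had log2 changes of -0.08 (limma adjusted p = 0.0597) and 0.00. Per unit length, LDHA was 1.33 times LDHB in low-glucose and 1.15 times in high-glucose MDA-MB-231, and 2.41 and 2.22 times in MDA-MB-468.

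The 2 lactate transporter genes stood at very different levels in the 2 lines. SLC16A3 (chr17:80175810-80219005), which encodes MCT4, the exporter of highly glycolytic cells, was at 7833, 7417, 7868 and 7311 in low-glucose MDA-MB-231 and 7559.6, 7244, 6848 and 7004 in high glucose, overlapping groups with a log2 change of -0.09. In MDA-MB-468 it was at only 346, 289.8, 342 and 347 in low and 399.6, 395, 423 and 447 in high glucose, a rise of 0.33 ± 0.07 (SE, adjusted p by limma = 0.000839) with no overlap. SLC16A1 (chr1:113454469-113500215), which encodes MCT1, was at 15.01, 12.7, 10.1 and 17.5 in low-glucose and 14.6, 13.7, 16.7 and 21.9 in high-glucose MDA-MB-231, between 10.1 and 21.9 normalized reads throughout. In MDA-MB-468 it was at 1062, 1149, 1033 and 1142 in low and 982, 997, 901 and 898 in high glucose, a log2 change of -0.22 ± 0.05 (SE, adjusted p by limma = 0.00173) with no overlap. Per unit length, SLC16A3 was 811 times SLC16A1 in low-glucose MDA-MB-231 and 0.436 times in low-glucose MDA-MB-468, where the high-glucose value was 0.637 times.

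**Figure D3:**
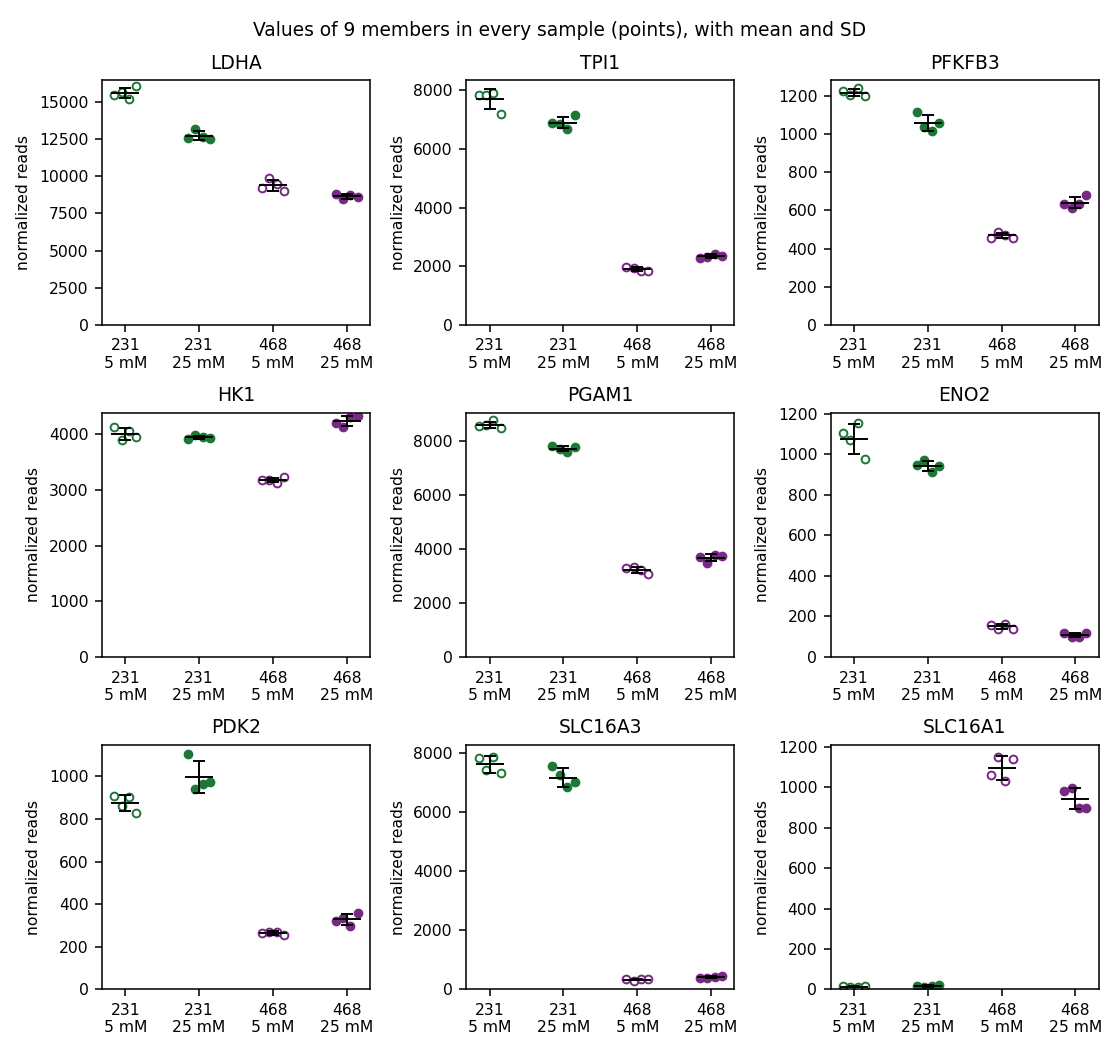
Normalized reads of 9 genes in every sample (points, open for 5 mM and filled for 25 mM, green for MDA-MB-231 and purple for MDA-MB-468), with mean and SD; each axis starts at 0. LDHA falls with glucose in both lines, TPI1, PFKFB3 and PGAM1 fall in MDA-MB-231 and rise in MDA-MB-468, and SLC16A1 and SLC16A3 are each high in 1 line.

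Among the kinases that switch off pyruvate dehydrogenase, PDK2 rose in both lines. PDK2 was at 909.6, 860.1, 904 and 831 in low-glucose and 1106, 944, 966 and 975 in high-glucose MDA-MB-231. In MDA-MB-468 it was at 263, 269.9, 271 and 255 in low and 322, 336, 298 and 357 in high glucose. Groups did not overlap in either line, and the log2 changes were 0.19 ± 0.05 (SE, adjusted p by limma = 0.023) and 0.31 ± 0.07 (SE, adjusted p by limma = 0.00136). In MDA-MB-231 the call was lost without low-glucose replicate 2 (0.18, adjusted p = 0.0592) or high-glucose replicate 1 (0.13, adjusted p = 0.0886), the sample with the highest value. PDK1, a hypoxia-induced kinase, had nearly equal estimates in the 2 lines, -0.23 for MDA-MB-231 (limma adjusted p = 0.102) and -0.24 for MDA-MB-468 (limma adjusted p = 0.0235) and passed only in the second, while the difference of the 2 was -0.01 (95% interval -0.25 to 0.23). In MDA-MB-468 its groups overlapped, and the call was lost without low-glucose replicate 1 (adjusted p = 0.069), low-glucose replicate 2 (0.0877) or high-glucose replicate 4 (0.0714), and with the length correction (-0.10, 0.337). PDK3 had log2 changes of -0.10 and 0.16, neither called, and passed in MDA-MB-468 without high-glucose replicate 4 (0.22, adjusted p = 0.0256). PDK4, a kinase of fasting and fat use, was at 57.2, 59.7, 68.2 and 66.8 in low-glucose and 60.3, 65.2, 90.1 and 88.5 in high-glucose MDA-MB-231 (0.25, limma adjusted p = 0.304). The 4 low-glucose MDA-MB-468 samples together held 5 reads of PDK4 and the 4 high-glucose ones 1, so no change was detectable at this depth.

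The pyruvate dehydrogenase subunits had no call in MDA-MB-231. In MDA-MB-468, DLAT, the acetyltransferase core, rose from 3199 ± 89.1 to 3664 ± 75.9 (0.20 ± 0.03 SE, adjusted p by limma = 6.59e-05) with no overlap. PDHB, the beta subunit of the first enzyme, rose from 1179 ± 31.5 to 1287 ± 71.9 (0.12 ± 0.04 SE, adjusted p by limma = 0.0261) with overlapping groups. The PDHB call was lost without low-glucose replicate 1 (adjusted p = 0.0672), 2 (0.0514) or 4 (0.055), or high-glucose replicate 1 (0.0783) or 4 (0.0876), and with the length correction (0.0958). PDHA1, the alpha subunit, had a log2 change of 0.10 (limma adjusted p = 0.0594) and passed without high-glucose replicate 1 (0.12, adjusted p = 0.0261).

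In the pentose phosphate pathway, PGLS passed in MDA-MB-231 and TKT and RPE in MDA-MB-468. PGLS, the lactonase of the oxidative branch, was at 2372, 2228, 2352 and 2126 in low-glucose and 2600.0, 2655, 2553 and 2723 in high-glucose MDA-MB-231, a rise of 0.22 ± 0.04 (SE, adjusted p by limma = 0.000962) with no overlap, and had a log2 change of 0.06 in MDA-MB-468. TKT, the transketolase that links the pathway back to glycolysis, rose in MDA-MB-468 from 5953 ± 282 to 7118 ± 234 (0.26 ± 0.04 SE, adjusted p by limma = 1.48e-05) and had a value of 0.00 in MDA-MB-231 (95% interval -0.08 to 0.08). RPE, the ribulose phosphate epimerase, rose in MDA-MB-468 from 967 ± 42.3 to 1141 ± 37.5 (0.24 ± 0.04 SE, adjusted p by limma = 0.000226) and stood at -0.03 in MDA-MB-231. PGD, a dehydrogenase of the oxidative branch, had values of -0.09 (limma adjusted p = 0.0618) and 0.06. TALDO1, transaldolase, had 0.05 and 0.01, and RPIA, ribose phosphate isomerase, -0.06 and -0.13, none called.

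Whether the lines responded differently to glucose was tested as the interaction of line and glucose over all 16 samples. The response was higher in MDA-MB-468 for 17 of 35 members and lower for 0, where limma called 17% of 17115 genes higher and 13.9% lower. The 17 were HK1, PFKL, PFKFB3, TPI1, GAPDH, PGK1, PGAM1, ENO1, PKM, LDHA, PDHA1, PDHB, DLAT, SLC16A3, PGD, TKT and RPE. A higher response does not require a rise: LDHA fell in both lines, by less in MDA-MB-468. Of the members with lower estimates, 3 had an unadjusted p under 0.05, edgeR called 1 of them (ENO2, -0.29, adjusted p = 0.0475) and DESeq2 called 0. PFKFB3 had a difference of log2 changes of 0.65 (95% interval 0.54 to 0.77, limma adjusted p = 1.83e-07). TPI1 differed by 0.46 ± 0.05 (SE, adjusted p by limma = 1.72e-06) and HK1 by 0.44 ± 0.03 (SE, adjusted p by limma = 3.82e-08). The differences of SLC16A3, ENO1 and PGAM1 were 0.42, 0.36 and 0.34, with adjusted p by limma of 0.000588, 8.27e-05 and 5.24e-06. Among genes reaching 5 CPM in 4 samples, 41.6% were called in either direction, and of 34 members 18 were higher and 1 lower.

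The scaling between libraries mattered for this comparison. Under quantile rescaling, which forces every library to the same distribution, 10 members were higher and 2 lower in MDA-MB-468 response, beside 2681 higher and 2772 lower of all 17115 genes (2909 and 2379 before rescaling). HK1, PFKL, PFKFB3, TPI1, PGAM1, ENO1, PKM, SLC16A3, TKT and RPE passed higher, ENO2 (-0.34) and PGLS (-0.19) passed lower, and GAPDH (0.04), PGK1 (0.06), LDHA (0.02), PGD (0.06), PDHA1 (0.14), PDHB (0.15) and DLAT (0.14) no longer passed. The 3 pyruvate dehydrogenase subunits were close to the threshold: PDHA1 lost its call without any 1 of 10 libraries (0.15 to 0.17, adjusted p up to 0.0744), DLAT without any 1 of 9 (0.14 to 0.19, up to 0.0679) and PDHB without any 1 of 5 (0.16 to 0.18, up to 0.0573). With the replicate block DLAT also lost its call (0.19, adjusted p = 0.0884), while GPI (0.11, 0.0418) gained one. The PDHA1 losses came without low-glucose replicates 2 and 3 and high-glucose replicates 1, 3 and 4 of MDA-MB-231, and without low-glucose replicates 1 and 3 and high-glucose replicates 2, 3 and 4 of MDA-MB-468. Those of DLAT came without low-glucose replicates 2 and 4 and high-glucose replicates 3 and 4 of MDA-MB-231, and without low-glucose replicates 1, 3 and 4 and high-glucose replicates 2 and 4 of MDA-MB-468. Those of PDHB came without low-glucose replicate 2 and high-glucose replicates 1 and 4 of MDA-MB-231, and without high-glucose replicates 1 and 4 of MDA-MB-468. Calls were gained without a single library too: ENO2 lower (without low-glucose MDA-MB-231 replicate 3, low-glucose MDA-MB-468 replicates 2 and 4, or high-glucose MDA-MB-468 replicates 1 and 4, adjusted p from 0.0237 to 0.0424), PGLS lower (without low-glucose MDA-MB-231 replicate 1, low-glucose MDA-MB-468 replicate 2 or high-glucose MDA-MB-468 replicate 4, from 0.034 to 0.0457), and SLC16A1 lower without low-glucose MDA-MB-231 replicate 4 (-0.59, adjusted p = 0.0262). That same library's removal added GPI (0.13, adjusted p = 0.00889) and ALDOA (0.20, 0.00823) to the higher ones. ALDOA also passed without low-glucose MDA-MB-468 replicate 1 (0.0472), LDHB without high-glucose MDA-MB-468 replicate 2 (0.0457) and PDK3 without high-glucose MDA-MB-231 replicate 1 (0.0357).

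The median absolute log2 difference of the members between the lines in low glucose was 1.0, beside 0.94 for all genes tested, and their median absolute glucose changes were 0.09 for MDA-MB-231 and 0.15 for MDA-MB-468, beside 0.10 and 0.21 for all genes. In low glucose, 10 members were higher in MDA-MB-468 and 23 lower, where 45% and 40.4% of all 17115 genes were called higher and lower. The median log2 difference of the members was -0.49, against 0.08 for all genes. SLC16A1, with the values given above, was the largest difference upward, 6.23 ± 0.15 (SE, adjusted p by limma = 5.8e-17), and PDK4 (-5.25), SLC16A3 (-4.52), ALDOC (-4.20), ENO2 (-2.82) and TPI1 (-2.02) were the largest downward. All 3 genes of the aldolase and triose phosphate steps, all 6 of lower glycolysis and both lactate dehydrogenase genes were lower in MDA-MB-468, although ALDOA (-0.20) turned to 0.11 and GAPDH (-0.30) no longer passed (-0.04) under quantile rescaling. The higher genes were GPI (0.83), PFKL (0.28), PFKFB2 (1.41), PDK1 (1.14), PDK3 (1.13), PDHA1 (0.10), DLAT (0.71), PGD (0.22) and RPE (0.92) beside SLC16A1. The fitted value of PDK4 depends on the added 1, since 2 of the 4 low-glucose MDA-MB-468 samples had no read. The PDHA1 call was lost without low-glucose MDA-MB-231 replicate 1 (0.07, adjusted p = 0.108), low-glucose MDA-MB-231 replicate 4 (0.10, 0.0525) or low-glucose MDA-MB-468 replicate 4 (0.09, 0.0612). With all samples it was also lost under TMM scaling (adjusted p = 0.0993), edgeR (0.109) and DESeq2 (0.101).

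The balance of isoforms is given as a description, without a test. Per unit length, PFKP was 1.90 times PFKL in low-glucose MDA-MB-231 and 0.525 times in low-glucose MDA-MB-468. ENO1 was 68.7 times ENO2 in low-glucose MDA-MB-231 and 212 times in low-glucose MDA-MB-468. In high-glucose MDA-MB-468 it was 360.1 times. PDK2, the most abundant kinase of its group per unit length in MDA-MB-231, stood at 36.6 ± 1.19 length-scaled reads (per kilobase, summing to 1000000 over genes) in low glucose, and PDK3 at 9.57 ± 0.763. In low-glucose MDA-MB-468 PDK3 stood at 22.2 ± 1.48 and PDK2 at 11.7 ± 0.265. Lengths are those of the canonical transcript, and PDK1 has one of 14072 bases, which lowers its value on this scale.

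The members together took 1.63% ± 0.0481 of all reads counted to the genes of the table in low-glucose MDA-MB-231 and 1.59% ± 0.0186 in high glucose (SD, n = 4). In MDA-MB-468 they took 1.05% ± 0.0249 and 1.14% ± 0.020. The MDA-MB-468 groups did not overlap (1.02% to 1.07% in low and 1.12% to 1.16% in high glucose), and the MDA-MB-231 groups did. ENO1, PKM, GAPDH, ALDOA and LDHA held between 62.6% and 68.0% of the members' reads on average in the 4 groups, so these shares mostly describe those 5 genes. On the per-length scale GAPDH was highest in both lines, at 5017 ± 143 in low-glucose MDA-MB-231 and 4305 ± 81.7 in low-glucose MDA-MB-468. ENO1 followed at 4515 ± 187 and 2066 ± 73.3. PKM came next in MDA-MB-231 (3421 ± 101), while in low-glucose MDA-MB-468 ALDOA (1256 ± 55.0) came before PKM (1136 ± 28.9), and in high glucose PKM (1318 ± 22.4) came before ALDOA (1272 ± 27.9). In MDA-MB-231 the neighbors TALDO1 (369 ± 14.9) and PGK1 (368 ± 4.43) did not differ beyond their SD, nor did PGAM1 (266 ± 7.51) and PGLS (265 ± 13.4) in MDA-MB-468.

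**Figure D4:**
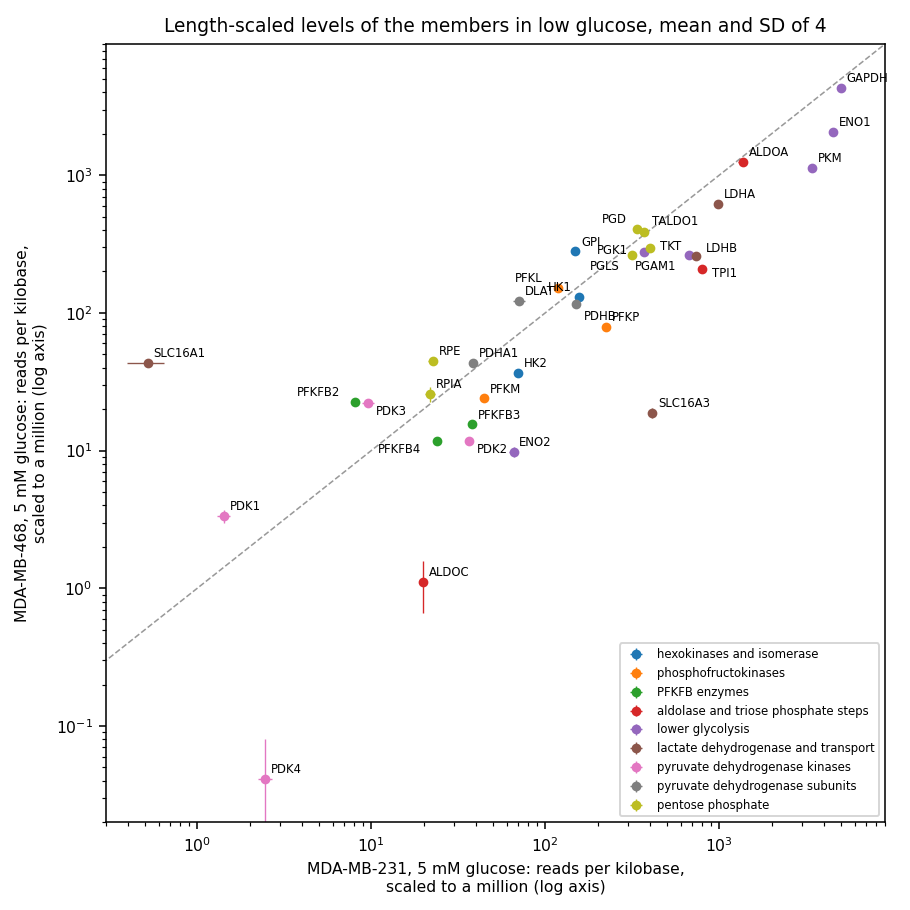
Mean length-scaled level of each of the 35 genes in low-glucose MDA-MB-231 (x) and MDA-MB-468 (y), both log axes, in length-scaled reads, with SD over 4 replicates; the dashed line marks equal levels. Most glycolytic genes lie under the line, and SLC16A1, at 0.518 ± 0.124 and 43.3 ± 2.49, lies farthest above it.

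A second list of 44 genes of the same pathways was read beside the members, of which 30 were in the table and the other 14 were not analysed here. In MDA-MB-231, 3 of 28 tested rose and 2 fell, and in MDA-MB-468, 6 of 26 rose and 5 fell, shares of 17.9% and 42.3% called beside 15.1% and 47.6% of all genes tested. BPGM, which makes 2,3-bisphosphoglycerate, rose in MDA-MB-231 from 163 to 203 (0.32 ± 0.08 SE, adjusted p by limma = 0.0126) and fell in MDA-MB-468 from 799 to 399 (-1.001 ± 0.05 SE, adjusted p by limma = 3.13e-10). The difference of its responses was -1.32 ± 0.08 (SE, adjusted p by limma = 6.98e-09). TKFC, a triose kinase, rose in MDA-MB-468 (0.70 ± 0.05 SE, adjusted p by limma = 8.4e-09). MPC1 and MPC2, the partner subunits of the mitochondrial pyruvate carrier, moved apart in MDA-MB-468, with -0.37 ± 0.04 (SE, adjusted p by limma = 1.28e-06) for MPC1 and 0.21 ± 0.05 (SE, adjusted p by limma = 0.0016) for MPC2. BSG, the chaperone of the MCT transporters, rose in MDA-MB-468 (0.15 ± 0.03 SE, adjusted p by limma = 0.00203), as did PDHX (0.13 ± 0.04 SE, adjusted p by limma = 0.00468), while DLD fell in MDA-MB-231 (-0.14 ± 0.04 SE, adjusted p by limma = 0.0422). SLC16A7, which encodes MCT2, averaged 181 in low-glucose MDA-MB-231 and was listed at 0 in every MDA-MB-468 sample, which is under the floor of 3 reads.

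Of 14 regulators of these genes, 13 were tested in each line. In MDA-MB-231, PPARGC1A, a coactivator of mitochondrial genes, rose (0.48 ± 0.09 SE, adjusted p by limma = 0.00147) and MYC fell (-0.23 ± 0.03 SE, adjusted p by limma = 3.46e-05), and no other passed. In MDA-MB-468, HIF1A (0.15 ± 0.04 SE, adjusted p by limma = 0.0019), EPAS1, EGLN1 and MLXIPL rose and ARNT, ESRRA and EGLN3 fell. MLXIPL, the glucose-sensing ChREBP, was low, at 24.3 in low and 41.3 in high glucose, with a log2 change of 0.73 ± 0.19 (SE, adjusted p by limma = 0.00485). EGLN3, a prolyl hydroxylase induced by hypoxia, went from 359 to 226 (-0.67 ± 0.08 SE, adjusted p by limma = 1.91e-06). These are transcript levels, and no protein or flux was measured in these files.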

How the data were processed

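RNA sequencing of MDA-MB-231 and MDA-MB-468 cells in 5 or 25 mM glucose was analyzed, with 4 replicates per group; groups and replicate numbers came from the sample labels. Per the study's methods, the authors trimmed reads with Trimmomatic, aligned them to hg19 with TopHat and Ensembl v70 and used DESeq2 and edgeR, while the processing notes name hg38 and edgeR; the counting program and its use of strand are not given in the sources used here. The deposited values are a normalized signal, the authors' read counts divided by 1 size factor per library. Whole reads were recovered for 100% of values (within 0.001 of a whole read), between 14094597 and 24425916 per library, and floors and counting limits cover counting error only.

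Symbols were found for 17647 of 18332 gene IDs and canonical transcript lengths for 17418 (GENCODE v44 lifted to GRCh37). Coordinates are on hg19, 1-based. Promoter windows are RefSeq sequence on GRCh38.p14; SLC16A1 and PFKFB2 had no entry. Genes reaching 0.5 CPM in 2 samples were tested with limma 3.58.1 (lmFit, eBayes with trend, two-sided, R 4.3.3) on log2(value + 1), per line for glucose and in a model of 4 group means over 16 samples for the interaction and the line difference, with Benjamini-Hochberg adjustment over all genes tested and a threshold of 0.05. Alternatives were pseudocounts of 0.5 and 5, other filters, TMM and quantile scaling, edgeR 4.0.16 and DESeq2 1.42.0 on recovered reads, a replicate block, a loess length correction and leaving out each replicate. The fits were also run on simulated data with log2 changes of 1, larger than any called glucose change of a member here. There limma recovered 183 of 200 changed genes with 13 false calls for MDA-MB-231 and 187 of 200 with 12 for MDA-MB-468. For the interaction it recovered 358 of 400 with 25 false calls, and for the line difference 187 of 200 with 12. Apart from the changed genes, all simulated samples shared the same mean profile, and far fewer genes changed than were called in the data. These counts therefore need not hold for the fits above. Recovery of changes as small as those of the members was not tested.

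The members and lists were chosen with earlier results of these data known, and 1 gene of the second pathway list is not reported here. Values in every sample are given for the 8 members with the largest change among those called in each line and for up to 6 each in the interaction and line comparisons; other members have group means or fold changes. Genes outside the 35 members are named where called with a log2 change of 0.5 or more in either direction in a line; DLD, PDHX, MPC1, MPC2 and BSG were listed by name, and SLC16A7, ARRDC4, the regulators below that size and the markers were chosen for mention after their values were seen.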

Additional observations from a re-analysis of the deposited data

Results flagged for a closer look

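Of 140 sets of 4 replicates (35 genes in 4 groups), 9 held a sample far from the other 3 by Dixon's test at 95%, where chance gives about 1 in 20. In low-glucose MDA-MB-231, replicate 4 stood apart for PFKP (4065 normalized reads, the lowest), TPI1 (7193, the lowest) and RPIA (304, the highest), and replicate 3 for RPE (466, the lowest). In high-glucose MDA-MB-231, replicate 4 stood apart for PFKM (1062), replicate 3 for PDK1 (129) and replicate 1 for RPE (559), each the highest. In MDA-MB-468, low-glucose replicate 2 stood apart for SLC16A3 (290, the lowest) and high-glucose replicate 3 for PDK4 (1.14), the only one of its group with a read.

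The response to glucose differed between the lines by the interaction test for 17 genes, all higher in MDA-MB-468. Among all 17115 genes tested, limma called 17% with a higher response in MDA-MB-468 and 13.9% with a lower one. With the 5 CPM filter, edgeR or the replicate block, 1 member had a lower response. Under quantile rescaling or the length correction 2 did, and with TMM scaling or DESeq2 0 did. The difference of log2 fold changes was 0.65 for PFKFB3, 0.46 for TPI1, 0.44 for HK1, 0.42 for SLC16A3, 0.36 for ENO1, 0.34 for PGAM1 and 0.33 for PFKL. It was 0.27 for RPE, 0.26 for TKT, 0.23 for PKM, 0.21 for GAPDH, 0.19 for PDHB, 0.19 for DLAT, 0.17 for LDHA, 0.17 for PDHA1, 0.16 for PGK1 and 0.14 for PGD. In limma, 7 of them no longer passed under quantile rescaling, and the cause was not tested.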

How the results depend on the processing

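Under quantile rescaling the line difference reversed for ALDOA (0.11) and TALDO1 (0.13), and the genes with a higher response in MDA-MB-468 went from 17 to 10. Those with a lower response went from 0 to 1 with the 5 CPM filter, 2 under quantile rescaling, 1 with edgeR, 1 with the replicate block and 2 with the length correction. The length correction took the genes lower in MDA-MB-231 from 9 to 14, and the cause of these shifts was not tested. Glucose calls over all genes went with transcript length. Medians were 2666 bases for genes called higher and 4238 for lower in MDA-MB-231, and 2721.5 and 4127 in MDA-MB-468. For called members they were 3364 and 2294 in MDA-MB-231, and 2753 and 3189.5 in MDA-MB-468. Leaving out 1 replicate at a time gave 2 to 3 genes higher and 8 to 14 lower in MDA-MB-231 (14 without low-glucose replicate 4), 12 to 15 and 5 to 6 for MDA-MB-468, 14 to 18 higher and 0 to 2 lower responses in MDA-MB-468, and 9 to 10 higher and 23 to 23 lower between lines. The replicate numbers are shared across groups, but deviations of same-numbered samples correlated only from -0.0711 to 0.0858, so they were not taken as pairs. With the replicate block, 3 members were higher and 9 lower in MDA-MB-231, in MDA-MB-468 these were 15 and 6, 17 and 1 in the interaction (DLAT lost and GPI gained among the higher ones), and 10 and 23 between lines. Quantile rescaling split all genes called in MDA-MB-468 into 3646 higher and 3800 lower, against 3925 and 3570. Genes near the floor (PDK4 in MDA-MB-468) or with few reads (SLC16A1 in MDA-MB-231, ALDOC in MDA-MB-468) have wide intervals.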
